A study of Mus musculus with 24 samples.

Results

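The loss of *Tet2* and the loss of *Tet1* were compared directly in undifferentiated murine embryonic stem cells (ESCs). The comparison rests on the 5 RNA-seq libraries of the single knockouts at day 0 (D0), 2 of *Tet2*-/- and 3 of *Tet1*-/-, out of 12 libraries at D0 and 24 in the whole series. Members were chosen by their labels alone: clones 1 and 2 of *Tet2*-/- and clones 1, 2 and 3 of *Tet1*-/-, numbered as in the titles of the samples, and values are given in that order throughout. All clones came from 1 parental ESC clone of 129/SVj origin that carries eGFP at *Pou5f1*, the gene for Oct4, and they were edited with Cas9 and a published guide for each gene, expanded singly, and grown without feeder cells in medium with serum and leukemia inhibitory factor (LIF). The other D0 libraries were from 3 clones of WT, 2 of DKO (*Tet1*-/-:*Tet2*-/-) and 2 of TKO (*Tet1*-/-:*Tet2*-/-:*Tet3*-/-), and the D6 libraries were taken after 6 days of LIF withdrawal. Each library is 1 clone, so a difference between genotypes is a difference between 2 clones and 3 clones, and p-values measure it against the spread between clones. The parental line was shared by all the groups, controls included, and growth conditions by all the D0 groups.

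Tet enzymes oxidize 5-methylcytosine to 5-hydroxymethylcytosine, a first step in the removal of DNA methylation. *Tet1* and *Tet2* are the members expressed in ESCs, while *Tet3* is best known from the oocyte and from later development. Genes that ESCs hold under DNA methylation, among them germline genes and imprinted genes, are therefore commonly examined when a Tet gene is lost.

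The sites that Cas9 was directed to are shown first because they define the 2 genotypes. Each site is given 5′ to 3′ on the strand of the gene as found in the mm9 genome, in lower case, with the PAM in capitals.
Tet1 site: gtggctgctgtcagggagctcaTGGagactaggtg
Tet2 site: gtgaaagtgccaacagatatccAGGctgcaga
The *Tet1* site was at chr10:62296283-62296317 on the minus strand, in a coding exon that is exon 4 or exon 5 depending on the transcript, with 32 of its 35 bases in the exon and 3 in the following intron. The *Tet2* site was at chr3:133148610-133148641 on the minus strand, and its 32 bases all lay in a coding exon. Small deletions at such a site need not remove the RNA, and the study reported loss of the protein on Western blots. In the study's list of alleles, each of the 3 *Tet1*-/- clones had 1 allele whose deletion was a multiple of 3 bases. Those alleles are given here with the deleted bases in capitals. The list does not tie its clones to the libraries.
Tet1 allele with 9 bases deleted, clone 1 of the list: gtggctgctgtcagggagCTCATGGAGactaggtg
Tet1 allele with 6 bases deleted, clone 2 of the list: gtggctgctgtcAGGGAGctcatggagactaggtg
Tet1 allele with 9 bases deleted, clone 3 of the list: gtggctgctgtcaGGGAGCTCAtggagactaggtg
The other allele of each of these clones, and the 1 allele listed for each of 2 *Tet2*-/- clones, had a deletion that was not a multiple of 3 bases.

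Values are CPM, counts relative to the TMM-scaled size of the library, and differences are log2 values of *Tet2*-/- minus *Tet1*-/- with their standard errors. A gene was called where the Benjamini-Hochberg adjusted p of edgeR's quasi-likelihood test was under 0.05 and the log2 difference was over 1 in size, which is 2-fold. The 5 libraries held 24456170 to 37290208 counts and a count of 3 equalled 0.0816 to 0.124 CPM, a limit that covers counting error only. Clones of 1 genotype differed by 8.08 to 19.8 times the sampling variance in these 2 groups and by 98.2 times between both TKO clones. The 45S ribosomal RNA precursor *Rn45s* took 11068 CPM in *Tet2*-/- clone 1 and 3833 to 6375 CPM in the other 4 libraries. Its part in the results was not tested.

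RNA of the edited genes was examined in every library first. *Tet2* RNA was 78.8, 105 and 84.5 CPM in the *Tet1*-/- clones and 19.6 and 21.6 CPM in the *Tet2*-/- clones, a difference of -2.12 ± 0.52 (adjusted p = 0.0162). Both *Tet2*-/- clones were below every *Tet1*-/- clone and below the WT clones, which had 88.9, 89.0 and 83.4 CPM. *Tet1* RNA was 87.7, 117 and 335 CPM in the *Tet1*-/- clones and 429 and 420.2 CPM in the *Tet2*-/- clones. *Tet1*-/- clone 3 stood apart from the other *Tet1*-/- clones and lay within the WT range of 209 to 408 CPM, and *Tet1* did not pass the test (1.24 ± 0.75, adjusted p = 0.258), although it was called in fits without the TKO libraries or with the 5 libraries alone. *Tet3* lies on chromosome 6, and its RNA was at 6.31, 6.43 and 5.77 CPM and 7.22 and 7.18 CPM and was not called. The label of the *Tet2*-/- clones was therefore visible in the RNA of the edited gene, that of 2 of the 3 *Tet1*-/- clones was visible in lower *Tet1* RNA, and RNA level does not check the label of *Tet1*-/- clone 3. Without *Tet1*-/- clone 2, or without either *Tet2*-/- clone, *Tet2* was no longer called.

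**Figure D1:**
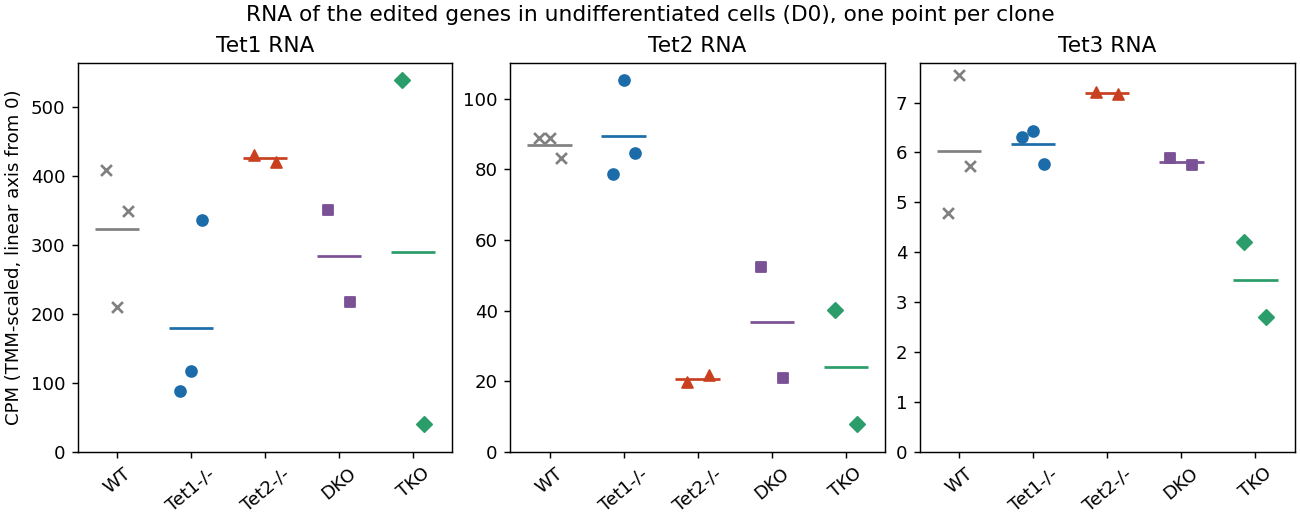
CPM of *Tet1*, *Tet2* and *Tet3* (linear axes from 0) in the 12 clones at D0, one point per clone and a line at the mean of each genotype. *Tet2* RNA sits at 19.6 and 21.6 CPM in the *Tet2*-/- clones against 78.8 to 105 in *Tet1*-/-, and the *Tet1*-/- clone 3 sits at 335 CPM of *Tet1* RNA, among the WT clones.

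The 2 single knockouts differed at 895 of 14456 tested genes. In *Tet2*-/- clones 382 genes were higher than in *Tet1*-/- clones (2.64% of the genes tested) and 513 were lower (3.55%), with a median log2 difference of 1.29 and -1.64, beside -0.01 over all tested genes. Differences beyond 4-fold were found for 46 of the higher and 157 of the lower genes. All the called genes had clones that did not overlap between the genotypes, and this also held for 60.9% of the tested genes. Of the lower genes 126 had a mean under 1 CPM in both genotypes, against 26 of the higher ones. At an unadjusted p under 0.05, 2559 genes were higher and 2551 lower. In a test against a 2-fold difference, which asks for more than an estimate past 2-fold, 15 genes remained, of which 14 were lower, with *Gpx2*, *Tmcc3*, *Hivep2*, *Ttc9* and *Mael* among them, and 1, the metallothionein gene *Mt3* (named after its value was seen), was higher. The counts rest on few clones: without 1 library they were 241 genes (without *Tet2*-/- clone 1), 349 (*Tet2*-/- clone 2), 505 (*Tet1*-/- clone 2), 659 (*Tet1*-/- clone 3) and 811 (*Tet1*-/- clone 1), and 68 higher and 77 lower genes were called in each of these 5 fits. The balance of higher and lower genes turned without *Tet2*-/- clone 2 (213 higher, 136 lower), without *Tet1*-/- clone 1 (413 and 398) and with no fold threshold (1516 and 1342).

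The clones also differed by chromosome. Genes on chromosomes 6 and 8 had a median log2 difference of 0.26 and 0.29, whereas the medians of the other autosomes and of X lay between -0.12 and 0.05. Of 610 tested genes on chromosome 6, 35 were higher (5.74%, beside 2.64% over all genes) and 12 lower (1.97%, beside 3.55%). Of 706 on chromosome 8, 57 were higher (8.07%) and 12 lower (1.70%). Relative to the mean of the 5 clones, genes with at least 5 CPM on chromosome 6 had medians of 0.15 and 0.22 in the *Tet2*-/- clones against -0.14, -0.13 and -0.08 in the *Tet1*-/- clones. On chromosome 8 the medians were 0.17 and 0.21 against -0.01, -0.27 and -0.10, with *Tet1*-/- clone 2 the lowest. Shifts of this size also occurred in other genotypes: TKO clone 2 stood at 0.39 on chromosome 6, 0.46 on chromosome 11 and 0.44 on chromosome 12, TKO clone 1 at 0.38 on chromosome 19, and WT clone 2 at -0.21 on chromosome 8. Gene dosage was not measured, and its part in the differences of genes on these chromosomes was not tested. Of the called genes not placed on either, 290 were higher and 489 lower, which includes genes without a position, as 92.2% of the tested genes had one. The 4 tested genes of chromosome Y were low in the *Tet2*-/- clones without being called: *Ddx3y*, for an RNA helicase, was 2.09, 1.48 and 3.84 CPM in *Tet1*-/-, 0.321 and 0.163 CPM in *Tet2*-/- and 4.74, 119 and 18.6 CPM in WT.

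**Figure D2:**
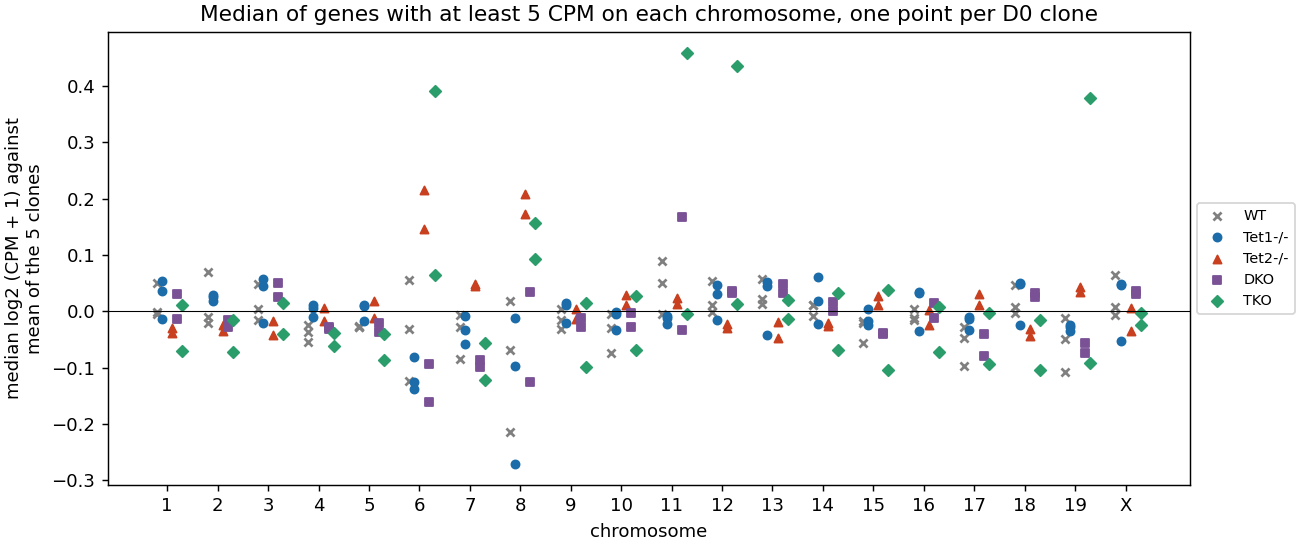
Median over genes with at least 5 CPM on each chromosome of log2 (CPM + 1) against the mean of the 5 single-knockout clones, one point per D0 clone. The *Tet2*-/- clones stand above the *Tet1*-/- clones on chromosomes 6 (0.15 and 0.22) and 8 (0.17 and 0.21).

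Among the genes that were higher in *Tet2*-/- clones, the largest difference was that of *Ndufa4l2*, which encodes a mitochondrial protein induced by hypoxia. It was 1.23, 0.875 and 0.124 CPM in the *Tet1*-/- clones and 15.2 and 4.1 CPM in the *Tet2*-/- clones (3.66 ± 1.07, adjusted p = 0.0325), so clone 1 of *Tet2*-/- was well above clone 2. *Zfp521*, for a zinc finger factor that promotes neural conversion of ESCs, was more even, with 2.43, 2.4 and 2.60 CPM against 18.8 and 16.7 CPM (2.84 ± 0.50, adjusted p = 0.00456), and WT clones had 5.47, 1.21 and 1.43 CPM. *Dclk1*, for a doublecortin-like kinase, was 0.0747, 0.0761 and 0.289 CPM against 2.17 and 1.28 CPM (3.53 ± 0.70). Among the others with large differences were *Ppp1r3g*, *Stc1*, *Cdc42ep2*, *Mansc4*, *Lefty2*, *Slc2a4*, *Atf3* and *Abca4*, with log2 differences of 2.33 to 2.87. *Ppp1r3g* targets a phosphatase to glycogen, *Slc2a4* is the insulin-responsive glucose transporter, and *Atf3* is a stress-induced transcription factor. *Slc2a4* was 0.336, 0.266 and 0.371 CPM against 1.76 and 1.63 CPM and *Atf3* was 0.859, 0.304 and 0.454 CPM against 2.85 and 2.75 CPM. Except for *Lefty2* and *Zfp521*, the genes named here stayed at or below 15.2 CPM in all 5 libraries. Several of the calls rest on single clones. Leaving out 1 clone, given in parentheses, ended the call of *Ndufa4l2* (any 1 of the 5), *Dclk1* (*Tet2*-/- 1), *Ppp1r3g* (*Tet1*-/- 2 or 3, *Tet2*-/- 1 or 2), *Stc1* (*Tet1*-/- 2 or 3, *Tet2*-/- 1), *Cdc42ep2* (*Tet1*-/- 2, *Tet2*-/- 1), *Mansc4* (*Tet2*-/- 1), *Slc2a4* (*Tet2*-/- 1), *Atf3* (*Tet1*-/- 2 or 3, *Tet2*-/- 1 or 2) and *Abca4* (*Tet2*-/- 2), whereas *Zfp521* and *Lefty2* stayed called.

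The genes that were lower in *Tet2*-/- clones reached larger differences. *Tmcc3* was 3.06, 4.22 and 3.09 CPM in the *Tet1*-/- clones and 0.321 and 0.0816 CPM in the *Tet2*-/- clones (-4.21 ± 0.50, adjusted p = 0.00116). *Gpx2*, a glutathione peroxidase, was 4.56, 5.25 and 4.50 CPM against 0.321 and 0.218 CPM (-4.16 ± 0.48, adjusted p = 0.000937). *Hivep2*, for a zinc finger transcription factor, was 2.73, 3.54 and 2.64 CPM against 0.200 and 0.190 CPM (-3.90 ± 0.50). In all 3 genes both *Tet2*-/- clones were far below every *Tet1*-/- clone, and the value of *Tmcc3* in *Tet2*-/- clone 2 equalled 3 counts. *Wt1*, for the zinc finger factor of kidney and gonad development, was 2.58, 2.93 and 3.18 CPM against 0.281 and 0.299 CPM, and WT clones had 0.459, 1.06 and 0.615 CPM, between both. The homeobox gene *Prox1* was 0.934, 1.41 and 1.40 CPM against 0.120 and 0.136 CPM, again with WT in between (0.229, 0.430 and 0.451 CPM). For *D2hgdh*, whose product oxidizes D-2-hydroxyglutarate to 2-oxoglutarate, the co-substrate of Tet enzymes, values were 1.90, 1.26 and 1.28 CPM against 0.200 and 0.0544 CPM (-3.62 ± 0.68, adjusted p = 0.00577), and WT clones had 1.34, 1.06 and 1.64 CPM, as in *Tet1*-/-. *Vrtn* had 3 counts over both *Tet2*-/- libraries and 87 over the *Tet1*-/- libraries, a ratio of 0.043 with an exact 95% counting interval of 0.0087 to 0.131. The others of the 12 were *Myl4*, *Hnf4a*, *Gabrr1*, *9030617O03Rik* and *Ttc9*, with log2 differences of -3.34 to -4.34. Among the 12, calls ended without 1 clone for *D2hgdh* (*Tet2*-/- 2), *Vrtn* (*Tet2*-/- 1 or 2), *Hnf4a* (*Tet2*-/- 2) and *Gabrr1* (*Tet2*-/- 1 or 2), and the other 8 stayed called.

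**Figure D3:**
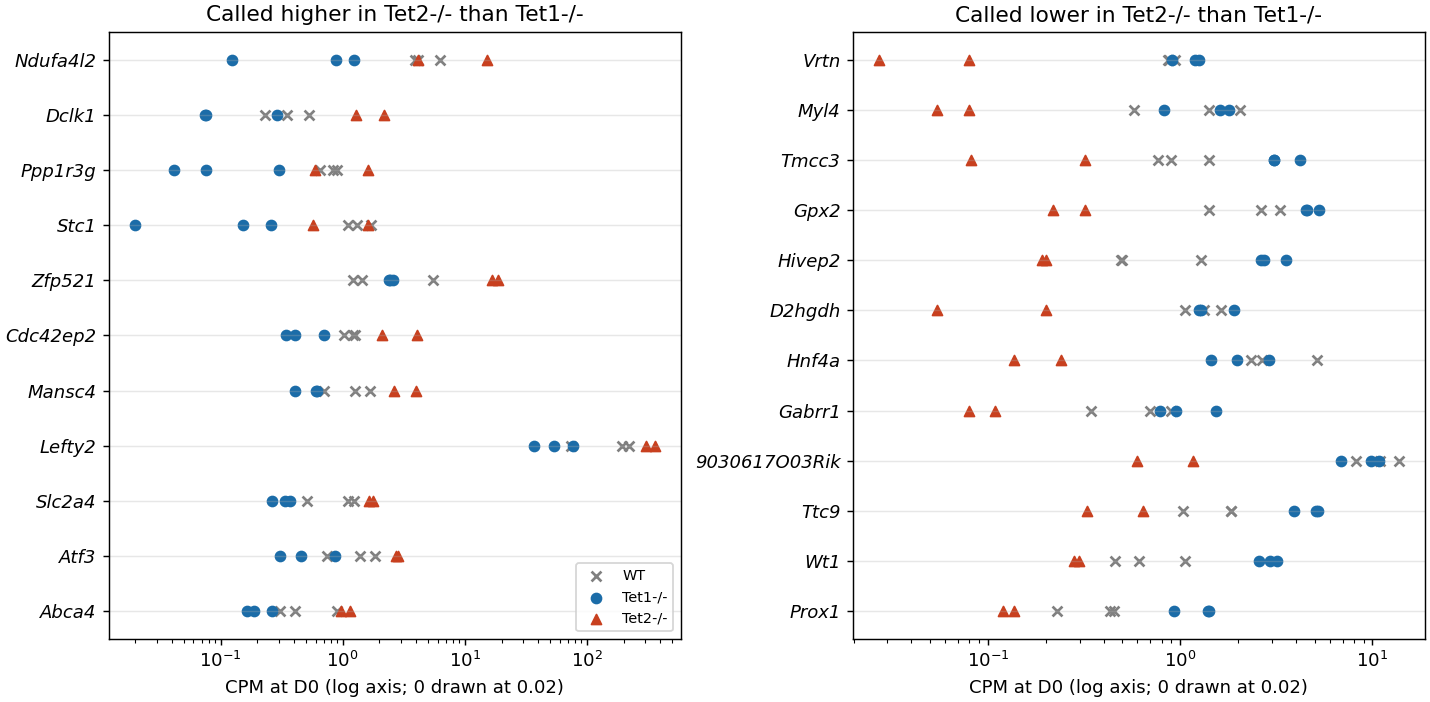
CPM at D0 (log axis) of genes with the largest called differences in each direction among those with at least 1 CPM in the higher genotype, one point per clone for WT, *Tet1*-/- and *Tet2*-/-. Clones of the 2 knockouts do not overlap at any gene, which the choice of genes required, and WT clones of *Wt1*, *Prox1* and *Hivep2* lie between them.

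Abundant genes differed as well. *Slc2a3*, the glucose transporter GLUT3, was 1148, 1047 and 908 CPM in *Tet1*-/- and 2356 and 1955 CPM in *Tet2*-/- clones (1.06 ± 0.14, adjusted p = 0.00138). Fibronectin, *Fn1*, was 906, 954 and 925 CPM against 2168 and 1829 CPM (1.11 ± 0.15, adjusted p = 0.00145), and it lies on chromosome 1. The amino acid transporter gene *Slc7a5* on chromosome 8 was 331, 264 and 307 CPM against 614 and 631 CPM. *Ncapd2*, a subunit of condensin, lies on chromosome 6 and was 231, 202 and 225 CPM against 521 and 486 CPM, and *Slc2a3*, *Tpi1* and *Ldhb* of the same group also lie there. Relative to the median of their own chromosome the differences of *Slc2a3*, *Slc7a5* and *Ncapd2* were 0.80, 0.76 and 0.94, under 2-fold. In the other direction, *Dhx16*, an RNA helicase of the spliceosome, was 353, 366 and 333 CPM against 171 and 156 CPM (-1.10 ± 0.10, adjusted p = 0.00039). *Hnrnph1*, a splicing regulator, was 249, 295 and 310.5 CPM against 98.4 and 114 CPM (-1.43 ± 0.21). *Lincenc1*, a long noncoding RNA of naive ESCs, was 203, 297 and 231 CPM against 61.4 and 41.4 CPM, and *Gpx1* was 574, 679.5 and 717 CPM against 209 and 382 CPM. For *Gpx1* the *Tet2*-/- clones were far apart. Without the clone in parentheses the call ended for *Slc2a3* (*Tet1*-/- 3, *Tet2*-/- 1), *Fn1* (*Tet2*-/- 1), *Slc7a5* (*Tet1*-/- 2), *Tpi1* (*Tet2*-/- 1), *Lincenc1* (*Tet2*-/- 1 or 2) and *Gpx1* (*Tet1*-/- 2 or 3, *Tet2*-/- 1), and it held for *Ncapd2*, *Ldhb*, *Dhx16* and *Hnrnph1*.

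Genes of the pluripotent state were compared next, and the counts of called members in this and the other lists stand beside 2.64% higher and 3.55% lower over all tested genes. None of 9 genes of core pluripotency was called. *Pou5f1* was 804, 811 and 728 CPM in *Tet1*-/- and 731 and 742 CPM in *Tet2*-/- clones, and *Sox2* was 691, 705 and 602 CPM against 786 and 686 CPM, with overlapping ranges. Of 20 genes of naive pluripotency 2 were lower and none was higher (median log2 difference -0.03). Those were *Zfp42*, which encodes Rex1 and marks undifferentiated ESCs, at 991, 914 and 874 CPM against 463 and 435 CPM (-1.04 ± 0.16, adjusted p = 0.00223), and the homeobox gene *Gbx2*, at 113, 117 and 101 CPM against 45.5 and 60.8 CPM (-1.05 ± 0.17, adjusted p = 0.00319). *Zfp42* lies on chromosome 8, and WT clones had 761, 839.7 and 906 CPM. Both estimates are close to the 2-fold threshold, and calls ended without 1 clone for *Zfp42* (*Tet1*-/- 1, *Tet2*-/- 2) and *Gbx2* (*Tet2*-/- 1). Relative to the median of each gene's own chromosome *Gbx2* was no longer called, *Zfp42* remained lower and 1 member was higher. *Esrrb* (0.27 ± 0.08, adjusted p = 0.0268) and *Tcl1* (0.97 ± 0.13, adjusted p = 0.00145) passed the test with differences under 2-fold, and *Tfcp2l1* (0.55 ± 0.20) and *Klf4* (0.54 ± 0.19) did not pass it. Genes of the LIF and Stat3 pathway, which keeps ESCs naive, were not called either (0 of 15, median 0.06), and *Socs3* was 203, 179.9 and 148 CPM against 180.0 and 157 CPM. The RNA of 8 genes that define undifferentiated ESCs summed to 5464 to 5975 CPM in *Tet1*-/- and 4995 to 5136 CPM in *Tet2*-/- clones, so the labelled cell type was present in all 5.

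Among 16 genes of formative and primed pluripotency, the states that follow the naive one, 4 were lower (25%, beside 3.55% over all genes) and 1 was higher (6.25%, beside 2.64%), with a median of -0.34. The zinc finger gene *Sall2* was 24.9, 22.5 and 23.4 CPM against 6.34 and 6.01 CPM (-1.93 ± 0.24, adjusted p = 0.00135), and *Grhl2*, a driver of the epithelial program of primed cells, was 20.8, 24.7 and 20.8 CPM against 6.13 and 5.69 CPM (-1.90 ± 0.28, adjusted p = 0.00204). In both genes the clones of each genotype were close together and the genotypes far apart. *Lef1* (-2.37 ± 0.57) and *Nkx1-2* (-1.70 ± 0.43) were lower at few CPM, and *Sox4* was higher, at 47.1, 35.2 and 33.6 CPM against 90.3 and 81.6 CPM (1.15 ± 0.23). *Otx2* and *Pou3f1*, which mark the formative state, were not called. Splicing regulator *Esrp1*, which maintains epithelial isoforms and is listed with the epithelial junctions, was 16.2, 19.5 and 17.4 CPM against 5.21 and 2.42 CPM (-2.24 ± 0.30, adjusted p = 0.00145). Of 20 tested genes of that list, *Ocln*, for the tight junction protein occludin, was also lower and *Tjp3* was higher, and *Cdh1* on chromosome 8, for E-cadherin, had 418, 301 and 363 CPM and 488 and 416 CPM. *Sall2*, *Grhl2* and *Esrp1* were called without any 1 clone, and calls ended for *Lef1* (*Tet1*-/- 2, *Tet2*-/- 1 or 2), *Nkx1-2* (*Tet1*-/- 2, *Tet2*-/- 1 or 2), *Sox4* (*Tet2*-/- 1), *Ocln* (*Tet1*-/- 1, *Tet2*-/- 1 or 2) and *Tjp3* (*Tet1*-/- 2 or 3, *Tet2*-/- 1 or 2). *Tjp3*, at 1.00 ± 0.32, was also not called with library totals or upper quartile scaling, a filter of 1 CPM, or without the TKO libraries.

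Nodal signalling, which Lefty proteins restrain as secreted inhibitors, had 3 of 17 genes higher and none lower (17.6%, beside 2.64% over all genes). *Lefty2* was 76.6, 36.9 and 53.9 CPM in the *Tet1*-/- clones and 304 and 358 CPM in the *Tet2*-/- clones (2.57 ± 0.37, adjusted p = 0.00193). *Lefty1*, its neighbor on chromosome 1, was 21.4, 9.51 and 15.3 CPM against 56.3 and 52.7 CPM (1.82 ± 0.49, adjusted p = 0.024). Both inhibitors were higher in every *Tet2*-/- clone, but WT clones ranged from 73.3 to 220 CPM for *Lefty2* and from 12.5 to 60.0 CPM for *Lefty1*, with WT clone 2 at the low end for both and the other WT clones overlapping *Tet2*-/- for *Lefty1*. The ligand *Nodal* itself was 76.6, 72.9 and 68.3 CPM against 80.0 and 84.1 CPM, the co-receptor *Tdgf1* was 712, 782 and 658 CPM against 651 and 611 CPM, and neither passed the test. Without *Tet1*-/- clone 2, or without either *Tet2*-/- clone, the list had 1 called gene, and without *Tet1*-/- clone 3 it had 2, while *Lefty2* was called in each of the 5 fits without a clone and the call of *Lefty1* ended without *Tet1*-/- 2 or 3, *Tet2*-/- 1 or 2.

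In the FGF and ERK pathway, which moves ESCs out of the naive state, 3 of 21 genes were lower (14.3%, beside 3.55% over all genes). The receptor gene *Fgfr2* was 3.88, 4.19 and 5.36 CPM against 1.04 and 0.490 CPM (-2.59 ± 0.54, adjusted p = 0.00877), *Fgfr3* was lower by the estimate of -2.06 ± 0.57, and the immediate early gene *Egr1* was 27.9, 29.0 and 29.2 CPM against 8.30 and 8.98 CPM (-1.73 ± 0.24, adjusted p = 0.00164). The feedback inhibitor *Spry4* was 364, 351 and 303 CPM against 332 and 327 CPM and was not called. Of 16 BMP and Id genes, *Smad6*, an inhibitor of BMP signalling, was lower at 20.9, 20.2 and 18.0 CPM against 6.54 and 6.20 CPM (-1.63 ± 0.26), as was *Msx2*, while the ligand *Bmp4* had 85.7, 85.5 and 87.5 CPM against 127 and 131 CPM (0.58 ± 0.16), a difference under 2-fold. Wnt targets went both ways: *T* and *Lef1* were lower and *Cdx1* and *Nkd1*, the latter on chromosome 8, were higher among 17. Relative to the median of that chromosome *Nkd1* was at 0.92, under 2-fold. Of 20 targets of p53, *Gdf15*, a stress-induced cytokine on chromosome 8, was higher at 2.76, 1.79 and 1.77 CPM against 8.42 and 9.17 CPM (2.06 ± 0.30, adjusted p = 0.0019), and *Pmaip1*, which encodes the proapoptotic Noxa, was lower at 31.1, 44.7 and 28.0 CPM against 6.13 and 12.5 CPM (-1.87 ± 0.43, adjusted p = 0.0124). *Plk2* was also lower (-1.04 ± 0.17), and *Trp53* was not called (0.07 ± 0.19). Relative to the median of each gene's own chromosome only *Pmaip1* of this list was lower. The median of the p53 targets was -0.56, with 16 of 20 negative. Calls ended without 1 clone for *Fgfr2* (*Tet2*-/- 2), *Fgfr3* (*Tet1*-/- 1 or 2, *Tet2*-/- 1 or 2), *Msx2* (*Tet2*-/- 1 or 2), *T* (*Tet2*-/- 1 or 2, and not tested without *Tet1*-/- 2 or 3), *Lef1* (*Tet1*-/- 2, *Tet2*-/- 1 or 2), *Cdx1* (*Tet2*-/- 2), *Nkd1* (*Tet1*-/- 2 or 3, *Tet2*-/- 1 or 2), *Pmaip1* (*Tet2*-/- 1) and *Plk2* (*Tet1*-/- 2, *Tet2*-/- 2), and held for *Egr1*, *Smad6* and *Gdf15*.

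**Figure D4:**
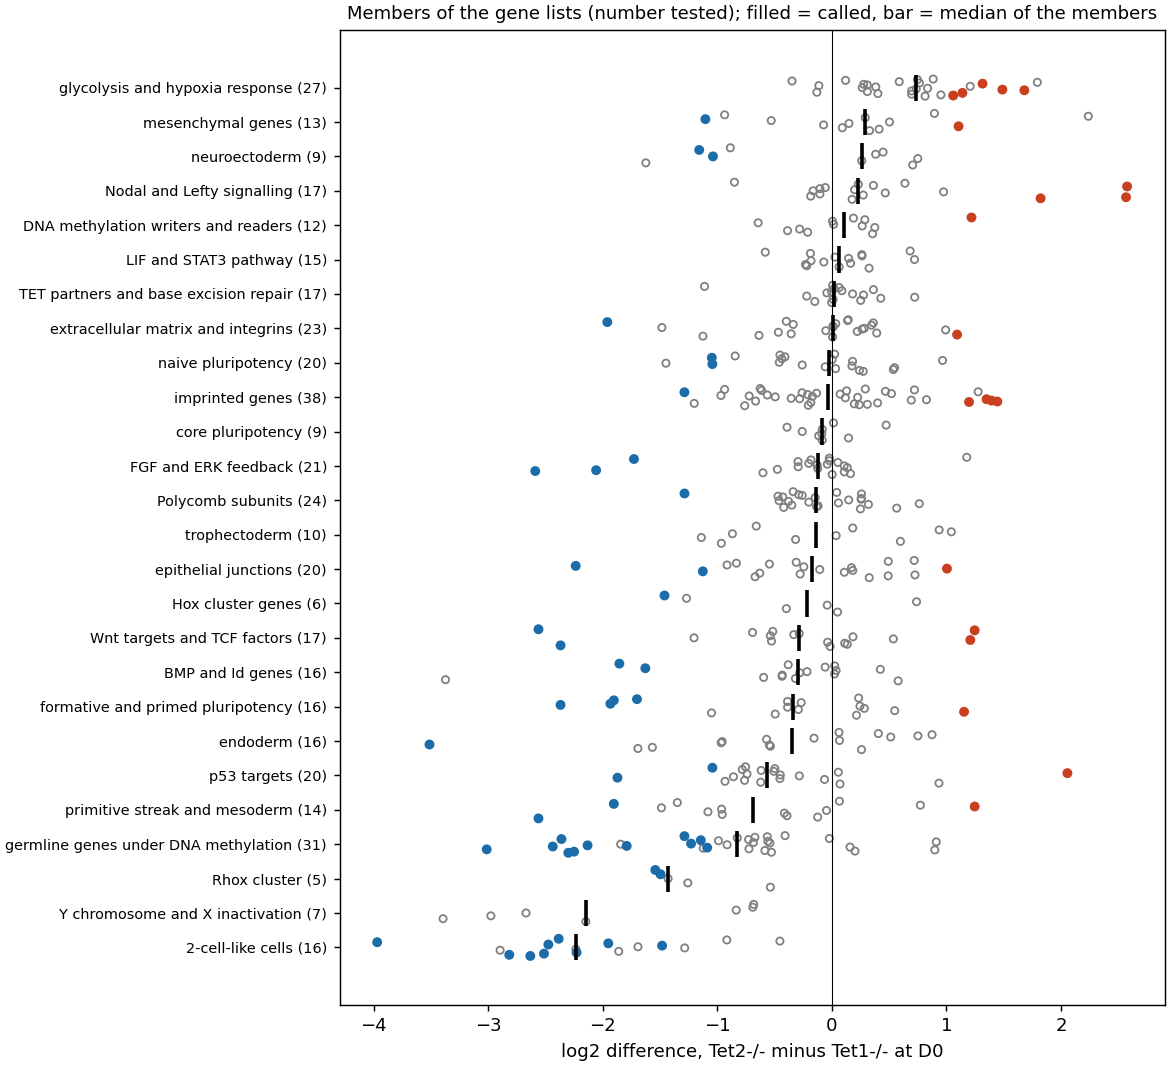
Log2 difference at D0 of every tested member of the gene lists, one circle per gene, filled where called and with a bar at the median of the members. To the left lie the lists of 2-cell-like cells (median -2.23), Y chromosome and X inactivation (-2.15), the Rhox cluster (-1.43) and germline genes (-0.83). Glycolysis and hypoxia response (0.74) lies to the right and core pluripotency near 0.

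A list of germline genes described as held under DNA methylation in ESCs had 31 tested members (35 listed, 33 in the table). Of these, 11 were lower in *Tet2*-/- clones (35.5%, beside 3.55% over all genes), none was higher and 20 were not called. Their methylation was not examined here. The difference was negative for 27 and positive for 4, up to 0.91, and the median was -0.83. Levels of the members, as median log2 (CPM + 1) against the mean of the single-knockout clones, were -0.32 and -0.29 in *Tet2*-/- clones. They were 0.24, 0.17 and 0.24 in *Tet1*-/- and 0.04, 0.45 and 0.40 in WT clones. DKO clones, which also lack *Tet2*, had 0.34 and 0.33, and TKO clones had -0.33 and 0.14. Why DKO and *Tet2*-/- clones differed was not tested. *Mael*, which acts in the piRNA pathway, was 20.9, 26.0 and 19.7 CPM in the *Tet1*-/- clones, 2.65 and 2.83 CPM in the *Tet2*-/- clones and 11, 20.8 and 15.1 CPM in WT (-3.01 ± 0.41, adjusted p = 0.00145). *Dazl*, an RNA-binding protein that licenses germ cell development, was 14.2, 19.6 and 18.4 CPM, 3.85 and 3.24 CPM and 11.2, 26.2 and 16.3 CPM in the same order of genotypes (-2.30 ± 0.33, adjusted p = 0.00179). For both genes the *Tet2*-/- clones were below all WT and *Tet1*-/- clones. *Taf7l*, a germ cell form of a TFIID subunit, was 1.94, 2.4 and 2.19 CPM against 0.281 and 0.490 CPM, and *Fkbp6*, needed for meiosis in males, was 2.09, 1.56 and 2.19 CPM against 0.401 and 0.354 CPM. The remaining lower members were *Sycp2*, *Slc25a31*, *Stk31*, *Mov10l1*, *Tex11*, *Rpl10l* and *Rpl39l*, of which *Stk31* lies on chromosome 6, with differences of -1.09 to -2.25. *Rpl10l* and *Rpl39l* have near-identical parent genes for ribosomal proteins, so their counts are uncertain. Members that were not called included *Ddx4* (-0.72 ± 0.19) and *Syce2* on chromosome 8 (0.90 ± 0.22), both under 2-fold, and *Sycp3* (0.20 ± 0.23). *Mael*, *Dazl* and *Rpl10l* stayed called without any 1 clone. The count fell to 3 and 4 without *Tet2*-/- clones 1 and 2 and to 6 and 7 without *Tet1*-/- clones 2 and 3, while the median stayed between -0.71 and -1.01 under every alternative.

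Promoters of 4 of these genes, the ones with the largest differences, are shown to let the shared letters be seen. Each is the 250 bases before the start in RefSeq (build GRCm38.p6), 5′ to 3′ on the strand of the gene, with the E-box CACGTG and the E2F-type hexamer TCCCGC (searched on both strands; the motifs do not overlap here) in capitals.
Mael, chr1:166238745-166238994, minus strand: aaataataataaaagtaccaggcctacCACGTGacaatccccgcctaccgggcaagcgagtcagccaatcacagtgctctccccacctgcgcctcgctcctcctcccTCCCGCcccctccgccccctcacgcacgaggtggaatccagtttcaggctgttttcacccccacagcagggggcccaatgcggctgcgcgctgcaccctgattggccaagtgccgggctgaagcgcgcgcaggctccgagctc
Taf7l, chrX:134476491-134476740, minus strand: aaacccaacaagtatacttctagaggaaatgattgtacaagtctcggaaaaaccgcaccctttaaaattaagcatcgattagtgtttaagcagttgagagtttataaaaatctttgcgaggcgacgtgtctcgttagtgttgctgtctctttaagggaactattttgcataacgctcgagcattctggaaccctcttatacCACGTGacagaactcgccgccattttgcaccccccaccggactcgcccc
Fkbp6, chr5:135350045-135350294, minus strand: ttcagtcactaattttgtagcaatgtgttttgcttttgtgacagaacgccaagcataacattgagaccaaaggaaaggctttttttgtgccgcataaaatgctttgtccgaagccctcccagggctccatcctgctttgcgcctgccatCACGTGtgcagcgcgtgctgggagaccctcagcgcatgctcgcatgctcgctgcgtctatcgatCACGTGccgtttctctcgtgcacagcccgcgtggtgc
Dazl, chr17:50293621-50293870, minus strand: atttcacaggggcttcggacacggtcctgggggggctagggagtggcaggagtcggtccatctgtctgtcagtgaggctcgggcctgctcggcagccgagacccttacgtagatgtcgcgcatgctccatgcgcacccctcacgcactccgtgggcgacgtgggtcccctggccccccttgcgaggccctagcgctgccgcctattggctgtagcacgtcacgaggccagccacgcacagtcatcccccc
*Fkbp6* had 2 matches of the E-box, *Mael* and *Taf7l* had 1 each, and *Dazl* had neither motif in this window. The E-box was found in 6 of the 10 lower genes with a promoter in the RefSeq table and in 8 of 18 members that were tested but not called, beside 8.55% of the promoters of tested genes and 6.05% of all promoters. The E2F-type hexamer was found in 2 of the 10 and 8 of the 18, beside 30.5% of the promoters of tested genes and 16.9% of all promoters. Letters that match are a description and not a bound site.

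Genes of 2-cell-like cells, a rare state of ESC cultures that resembles the 2-cell embryo, had 16 tested members (27 listed, 24 in the table). Of these 9 were lower in the *Tet2*-/- clones (56.25%, beside 3.55% over all genes) and 7 were not called, all 16 had negative differences, and the median was -2.23. Genes this low can pass the filter through the genotypes where they are higher, so the shared sign is in part set by it. With the 5 libraries alone 8 of 10 tested members were lower, and with no filter 10 of 22 were, with a median of -2.22. *Zscan4c*, the gene that marks this state, was 1.23, 1.10 and 1.28 CPM in *Tet1*-/- and 0.120 and 0.272 CPM in *Tet2*-/- clones (-2.51 ± 0.56, adjusted p = 0.011), and *Zscan4d* was 1.53, 1.79 and 1.69 CPM against 0.281 and 0.408 CPM. WT clones had 0.497, 1.02 and 1.39 CPM of *Zscan4c* and 0.918, 1.10 and 1.80 CPM of *Zscan4d*, both above the *Tet2*-/- clones. For *Pramef25*, 1 count over the *Tet2*-/- libraries stood against 25 over the *Tet1*-/- libraries, a ratio of 0.050 (exact 95% counting interval 0.0012 to 0.306). *Zscan4b* had 3 counts against 29, a ratio of 0.130 (0.025 to 0.418). *Gm8300*, *Gm5662*, *Usp17le* and *Zscan4a* were also called, and *Tcstv1*, *Tcstv3* and *Zscan4f* had lower values without passing the test. Summed over 6 defining markers, the level was 3.51 to 4.21 CPM in *Tet1*-/-, 0.52 to 0.84 CPM in *Tet2*-/- and 1.84 to 4.96 CPM in WT clones. Median log2 (CPM + 1) levels of the tested members were also taken relative to the mean of the 5 clones. They were -0.33 and -0.23 in *Tet2*-/-, 0.16, 0.23 and 0.30 in *Tet1*-/- and -0.06, 0.22 and 0.43 in WT clones. DKO clones, which also lack *Tet2*, had 0.95 and 0.64, and TKO clones had -0.32 and -0.30. These genes belong to families of near-identical copies, so single members are uncertain, and fewer cells of a type and less RNA per cell cannot be told apart in bulk samples. No member was called without *Tet2*-/- clone 1 and *Gm8300* alone was called without *Tet2*-/- clone 2, with every median between -1.90 and -2.51.

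In the Rhox cluster of homeobox genes on chromosome X, which are expressed in reproductive tissues, 2 of 5 tested genes were lower (40%, beside 3.55% over all genes). *Rhox13* was 3.70, 3.46 and 4.04 CPM against 1.56 and 1.03 CPM (-1.54 ± 0.29, adjusted p = 0.00577), and *Rhox10* was 2.91, 2.32 and 2.60 CPM against 1.08 and 0.789 CPM (-1.50 ± 0.34). Without the clone in parentheses the call ended for *Rhox13* (*Tet2*-/- 2) and *Rhox10* (*Tet2*-/- 1 or 2).

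Imprinted genes, expressed from 1 parental allele according to DNA methylation, showed 4 higher (10.5%, beside 2.64% over all genes) and 1 lower (2.63%, beside 3.55%) of 38 tested, with a median of -0.03. *Peg10* was 141, 157 and 201 CPM in *Tet1*-/- and 450.0 and 454 CPM in *Tet2*-/- clones (1.44 ± 0.21, adjusted p = 0.0021). Its neighbor *Sgce* was 1.83, 1.48 and 1.48 CPM against 4.73 and 3.73 CPM (1.39 ± 0.28). Both lie in the same imprinted domain on chromosome 6, and relative to the median of that chromosome their differences were 1.18 and 1.13. *Grb10*, an adaptor that restrains growth, was 127, 122 and 112 CPM against 266 and 346 CPM (1.35 ± 0.30, adjusted p = 0.0116), and *Peg3*, a zinc finger gene expressed from the paternal allele, was 9.22, 10.9 and 13.5 CPM against 27.3 and 24 CPM (1.20 ± 0.30). *Mcts2*, which lies within an intron of another gene whose reads may be shared with it, was lower at 2.28, 2.36 and 2.80 CPM against 1.08 and 0.952 CPM. Only *Peg10* was called without any 1 clone, and calls ended for *Sgce* (*Tet2*-/- 1), *Grb10* (*Tet2*-/- 1 or 2), *Peg3* (*Tet1*-/- 1 or 2, *Tet2*-/- 1 or 2) and *Mcts2* (*Tet2*-/- 1 or 2). *H19*, *Igf2*, *Meg3* and *Snrpn* were not called, with differences between -0.76 and 0.31. Of 12 writers and readers of DNA methylation, 1 was higher (8.33%, beside 2.64% over all genes) and none lower, and the clones did not overlap for 10, beside 60.9% of all tested genes. The called gene was the methyl-CpG reader *Zbtb4* (1.21 ± 0.35), at no more than 1.64 CPM and not without *Tet1*-/- 2 or 3, *Tet2*-/- 1 or 2, and *Dnmt1* (0.36 ± 0.13), *Dnmt3a* (-0.21 ± 0.28), *Dnmt3b* (-0.39 ± 0.16) and *Uhrf1* (0.37 ± 0.11) were not. None of 17 Tet partners and base excision repair genes passed, *Ogt* among them (0.00 ± 0.08).

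Of 27 genes of glycolysis and the response to hypoxia, 5 were higher in the *Tet2*-/- clones (18.5%, beside 2.64% over all genes), none was lower and 22 were not called. The difference was positive for 24 and the median was 0.74. *Tpi1*, triosephosphate isomerase, was 386, 354 and 233 CPM against 1102 and 718 CPM (1.49 ± 0.32, adjusted p = 0.0103), and *Ldhb*, lactate dehydrogenase B, was 296, 327 and 301 CPM against 788 and 745 CPM (1.32 ± 0.20, adjusted p = 0.0024). *Pfkl*, the liver form of phosphofructokinase, was 215, 194 and 151 CPM against 527 and 295 CPM, and *Aldoc*, aldolase C, was 10.8, 7.91 and 5.57 CPM against 37.1 and 15 CPM. *Slc2a3*, described above, was the fifth. WT clones had 589.8, 649 and 513 CPM of *Tpi1*, between the 2 knockouts, and 19.7, 22.9 and 18.5 CPM of *Aldoc*, overlapping with *Tet2*-/-. *Gapdh* on chromosome 6 (0.74 ± 0.10) and *Pgk1* (0.84 ± 0.27) passed the test with differences under 2-fold, and *Bnip3* (1.79 ± 0.71) did not pass it. Of the 5 genes, *Tpi1*, *Ldhb* and *Slc2a3* lie on chromosome 6, and over the 20 members not placed on chromosome 6 or 8 the median was 0.64. Relative to the median of each gene's own chromosome 4 members were called, without *Slc2a3*. *Tet2*-/- clone 1 had the higher value of the pair for all 5. Without it 1 member, *Ldhb*, was called and the median was 0.45, and without *Tet2*-/- clone 2 the count was 6 and the median 0.86. Without *Tet1*-/- clone 2 or 3 the count was 3 or 2.

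Lineage genes were at low levels at D0. *T* and *Kdr*, early genes of the primitive streak and of blood and vessel precursors, were lower among 14 tested genes of primitive streak and mesoderm and *Cdx1* was higher. *Kdr* was 4.56, 6.58 and 7.75 CPM against 1.32 and 1.99 CPM (-1.90 ± 0.40, adjusted p = 0.00882), with WT at 1.45, 3.36 and 2.05 CPM. *Hnf4a*, a factor of visceral endoderm and liver, was the 1 called gene of 16 in endoderm, at 2.91, 1.98 and 1.44 CPM against 0.241 and 0.136 CPM, while WT clones had 2.33, 5.1 and 2.66 CPM. *Gata4*, *Gata6*, *Sox17* and 3 further markers of primitive endoderm summed to 7.96 to 8.49 CPM in *Tet1*-/- and 6.17 to 6.56 CPM in *Tet2*-/- clones, and none was called. *En2* and *Neurod1* were lower among 9 neuroectoderm genes, and none of 10 trophectoderm genes passed. Relative to the median of each gene's own chromosome only *En2* of the neuroectoderm list was lower. Markers of mesoderm summed to 11.9 to 14.7 CPM and 9.14 to 10.8 CPM, those of neuroectoderm to 11 to 18.0 CPM and 17.4 to 20.9 CPM, and those of trophectoderm to 0.87 to 1.57 CPM and 0.44 to 0.49 CPM. Fibroblast markers, which would show feeder cells, summed to 29.5 to 46.3 CPM and 62.6 to 63.9 CPM, mostly *Thy1*, and *Postn* and *Dcn* were at 0 counts in all 5 libraries. The part of such cells in the differences was not tested. In the remaining lists, *Fn1* was higher and *Twist1* lower of 13 mesenchymal genes, *Col5a2* was higher and *Itgb3* lower of 23 matrix and integrin genes, *Cbx8* was lower of 24 Polycomb subunits, and *Hoxd13* was lower of 6 tested Hox genes. Apart from *Itgb3*, which stayed called, calls ended without 1 clone for *T* (*Tet2*-/- 1 or 2, and not tested without *Tet1*-/- 2 or 3), *Kdr* (*Tet2*-/- 1 or 2), *Cdx1* (*Tet2*-/- 2), *Hnf4a* (*Tet2*-/- 2), *En2* (*Tet2*-/- 1), *Neurod1* (any 1 of the 5), *Fn1* (*Tet2*-/- 1), *Twist1* (any 1 of the 5), *Col5a2* (*Tet1*-/- 2, *Tet2*-/- 1 or 2), *Cbx8* (any 1 of the 5) and *Hoxd13* (*Tet1*-/- 3, *Tet2*-/- 1 or 2).

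The other genotypes were set beside these genes without a test, since the genes had been chosen on the *Tet1*-/- and *Tet2*-/- libraries. WT means, on a log2 (CPM + 1) scale, were nearer to *Tet1*-/- than to *Tet2*-/- for 296 of the 382 higher genes (77.5%) and 380 of the 513 lower genes (74.1%), beside 66.4% of all tested genes. This was not even over WT clones: of the higher genes, 43.5% were nearer to *Tet1*-/- in clone 1, 83.2% in clone 2 and 78.8% in clone 3. DKO, which lacks both genes, was nearer to *Tet1*-/- for 97.1% of the higher and 83.0% of the lower genes, beside 75.7% of all. For *Zfp521* the DKO clones had 1.75 and 0.65 CPM, and for *Lefty2* 62.4 and 65.9 CPM, both near *Tet1*-/-. TKO was nearer to *Tet1*-/- for 57.6% and 44.1%, beside 53.4% of all, with its clones 36.1% and 75.9% for the higher genes.

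After 6 days without LIF the same comparison gave 289 higher genes (1.87% of 15435 tested) and 692 lower genes (4.48%), from libraries of 3 *Tet1*-/- clones and the same 2 *Tet2*-/- clones. The second *Tet1*-/- clone at D6 was another one than at D0. Of the D0 genes, 61 higher ones (16% of those of D0 and 21.1% of those of D6) and 126 lower ones (24.6% and 18.2%) were called the same way at D6. The sign was the same at D6 for 274 of 373 higher and 395 of 478 lower genes tested on both days, with median differences of 0.46 and -0.82 at D6, beside -0.03 over all genes. Across 14185 genes, which are not independent replicates and come in part from the same clones, the differences at D0 and D6 had a Pearson r of 0.41. *Lefty1* and *Lefty2* were called higher on both days, with 2.03 and 1.75 at D6. The germline and 2-cell-like lists had no called member at D6, with medians of 0.00 and -0.99. The D6 count was 20 and 2 without *Tet2*-/- clones 1 and 2, 214 without *Tet1*-/- clone 1 and 1713 without *Tet1*-/- clone 3.

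The change in the difference between days was tested directly in a fit of all 24 libraries. Most clones had a library on each day, and the fit had no term for the clone. The difference rose from D0 to D6 for 111 genes (0.71% of 15639) and fell for 219 (1.4%). Genes called at D0 were chosen on libraries that also enter this test, so a smaller difference at D6 is in part set by that choice. *Gbx2* turned from -1.05 ± 0.17 at D0 to 2.01 ± 0.41 at D6, where it was 2.88, 3.71 and 4.94 CPM in *Tet1*-/- and 14.7 and 16.3 CPM in *Tet2*-/- clones. *Nrp2*, a receptor of semaphorins and VEGF, turned the other way, from 21.5, 19 and 17.9 CPM and 68.8 and 48.0 CPM at D0 to 85.9, 102 and 57.6 CPM and 13.2 and 12.4 CPM at D6. *Wt1* and *Sall2* were lower at D0 and had differences of 0.02 ± 0.26 and 0.09 ± 0.19 at D6. *Tet2* RNA itself was 13.4, 14.3 and 14.0 CPM and 16.7 and 17.5 CPM at D6, so that the difference seen at D0 was not seen there. These counts depend on single clones, with 6 to 1017 genes when 1 of the 10 libraries was left out. The count stayed within 1.5 times the 330 of the full fit only without *Tet1*-/- clone 1 at D0 (312) or the second *Tet1*-/- clone at D6 (238). With only the *Tet1*-/- and *Tet2*-/- clones that were present on both days it was 85.

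**Figure D5:**
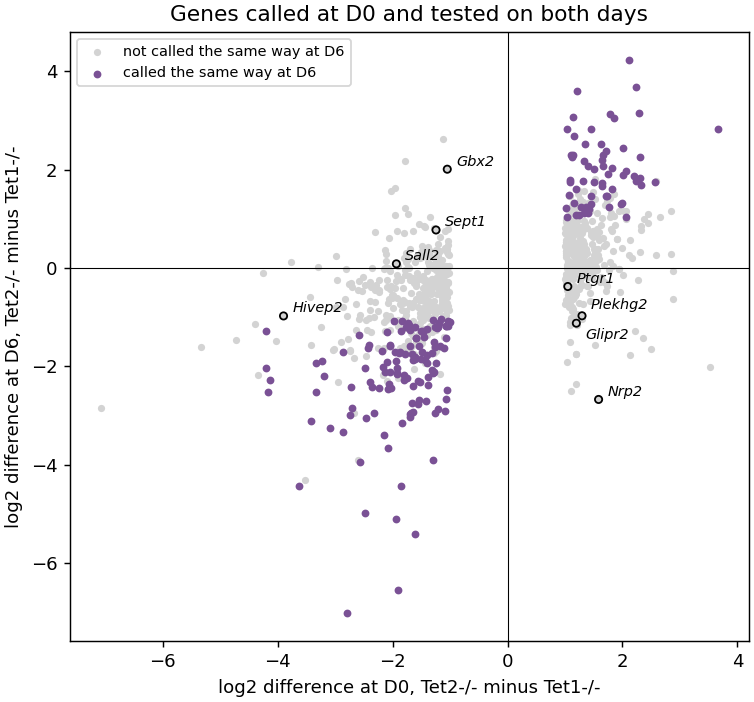
Log2 difference of *Tet2*-/- minus *Tet1*-/- at D0 (horizontal) and at D6 (vertical) for genes called at D0 and tested on both days, with genes called the same way at D6 in color. Named genes are those with the smallest p for a change between days, such as *Gbx2* (-1.05 and 2.01) and *Nrp2* (1.58 and -2.67).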

How the data were processed

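RNA-seq (polyadenylated RNA, paired-end) of 24 libraries was deposited as a table of counts per transcript line for D0 and another for D6. Per the submitters' processing notes, reads were aligned to mm9 with STAR 2.5.1 and DESeq2 was also named. A note in the study's supplement and the deposited file name different counting programs, and the strand setting is not given in the sources used here, so overlapping genes may share reads. Spike-in scaling was not repeated, since the lines used here hold genes only.

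The first line of each of 22926 symbols was taken from 31928 lines of the D0 table. Genes were kept by filterByExpr (minimum count 10), scaled by TMM and fitted with edgeR 4.0.16 (quasi-likelihood) in R 4.3.3 on the 12 D0 libraries, which share 1 estimate of the spread, with no covariate. Benjamini-Hochberg adjustment was over all tested genes. D6 was fitted likewise, and the difference between days in 1 fit of 24 libraries. CPM are TMM-scaled, and fitted differences use a prior count of 0.125. Intervals of count ratios are exact and cover counting error only. Scripts were tested on simulated data.

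Samples were grouped by their titles. The genes named are the edited genes, the 12 largest called differences per direction (mean of at least 1 CPM in the higher genotype, clones not overlapping), the 6 most abundant called genes per direction, up to 4 members per list (called ones first by size, then by CPM), and 4 per direction for the change between days. Some genes that this rule names are not reported here. Further members were named after their values were seen. The members and lists were chosen with earlier results of these data known. Replicate numbers did not pair *Tet1*-/- with *Tet2*-/- clones. Alternatives were RLE, library totals and upper quartile scaling, DESeq2 1.42.0, limma 3.58.1 (voom), other filters, libraries, lines and fold thresholds, a replicate block and leaving out each clone.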

Additional observations from a re-analysis of the deposited data

Results flagged for a closer look

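The difference between *Tet2*-/- and *Tet1*-/- clones was not the same on both days for the genes named here, by edgeR's test of that change (adjusted p under 0.05 and a change over 1 on the log2 scale). Values are the change of the log2 difference from D0 to D6, in 1 fit of 24 libraries, and no explanation was weighed. Genes called at D0 were chosen on libraries that also enter this test.

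Among genes that were higher in *Tet2*-/- clones at D0, the change was -5.54 ± 1.13 for *Dclk1*, -4.24 ± 0.57 for *Nrp2* (adjusted p = 0.00204), -3.76 ± 0.70 for *Atf3* and -3.54 ± 0.60 for *Peg3*, and *Nrp2*, *Atf3*, *Peg3* and *Glipr2* (-2.30 ± 0.37) were called lower at D6. For *Peg3*, an imprinted gene, the *Tet2*-/- clones had 105 and 82.7 CPM and the *Tet1*-/- clones 549, 667 and 229 CPM at D6. The imprinted gene *Peg10* changed by -2.10 ± 0.46 and was not called at D6. The change was -2.53 ± 0.63 for *Zfp521*, -2.35 ± 0.52 for *Zbtb4*, -2.25 ± 0.34 for *Plekhg2*, -1.72 ± 0.45 for *Tjp3* and -1.41 ± 0.23 for *Ptgr1*.

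Among genes that were lower in *Tet2*-/- clones at D0, the change was 3.33 ± 0.60 for *Wt1*, 3.07 ± 0.41 for *Gbx2* (adjusted p = 0.00204), 2.96 ± 0.57 for *Tmcc3* and 2.94 ± 0.52 for *Hivep2*. *Gbx2* was called higher at D6, whereas *Tmcc3* was still called lower, with 50.6, 26.9 and 47.3 CPM in *Tet1*-/- and 18.0 and 16.4 CPM in *Tet2*-/- clones. The change was 2.43 ± 0.61 for *Tet2*, 2.35 ± 0.55 for *Fgfr2*, 2.03 ± 0.31 for *Sall2*, 2.03 ± 0.42 for *Esrp1*, 2.03 ± 0.36 for *Sept1* and 1.95 ± 0.47 for *Grhl2*.

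Genes not called at D0 and called lower at D6 were the endoderm factor *Gata4* (-3.27 ± 0.88), the imprinted growth factor *Igf2* (-3.22 ± 0.77), the keratin gene *Krt8* (-2.83 ± 0.51), *Tead4* (-2.28 ± 0.40), a factor of the trophectoderm, and *Sparc* (-1.46 ± 0.26), for a matrix protein.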

How the results depend on the processing

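Of the 895 genes called at D0, each kept its sign under every alternative of scaling, tool, filter, line, libraries, clones and block that tested it. Scaling, tool, filter, the choice of line per symbol and a smaller set of libraries gave 769 to 1135 calls. Testing every transcript line gave 1283 of 21741 lines. Without a fold threshold 2858 genes passed and in a test against 2-fold 15 passed. Leaving out 1 clone gave 241 to 811 calls at D0, 2 to 1713 at D6 and 6 to 1017 for the change between days, where clones present on both days gave 85 instead of 330. Without *Tet2*-/- clone 2, 61.0% of the D0 calls were higher, against 42.7% with all clones, and without *Tet1*-/- clone 1 it was 50.9%. With the replicate number as a block 839 genes were called at D0 (781 of them shared), 808 at D6 instead of 981 and 276 for the change between days; the deviations of same-numbered *Tet1*-/- and *Tet2*-/- clones correlated at 0.24 and -0.07, so the numbers were not taken as pairs. In alternatives chosen after seeing the data, 779 genes were called with chromosomes 6 and 8 left out and 849 relative to the median of their own chromosome. Of 1604 values of the 101 named called genes under those of these alternatives that concern scaling, tool, filter, libraries, clones, block and the line per symbol, 1409 stayed called, 195 did not and 0 turned in direction. Apart from left-out clones and the settings given above for *Tjp3*, calls ended with limma voom for *Cbx8* and *Ndufa4l2*, with DESeq2 for *Nkx1-2*, and with the replicate block for *Cbx8*, *Neurod1*, *Pfkl*, *Slc2a3*, *Sycp2*, *Tjp3*, *Twist1* and *Usp17le*. Of 486 medians of the 27 lists, 371 moved by less than the spread between clones. The median of 10 lists, all with a median within 0.35 of 0, changed sign under at least 1 alternative, for example that of neuroectoderm, from 0.26 to -0.83 without a filter. The cause was not tested. Genes under 1 CPM, 126 of the lower and 26 of the higher calls, rest on few counts.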
